A study of Mus musculus with 22 samples.

Results

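The genes described here encode 10 proteins of the intercalated disc, the junction that ties heart muscle cells end to end. They were chosen by symbol from both count tables of the series as Gja1, Cdh2, Dsp, Pkp2, Jup, Dsg2, Dsc2, Ctnna1, Ctnna3 and Ctnnb1, and they are 10 of the 48709 genes listed. All 10 were found in both tables and passed the filter on low counts.

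RNA was sequenced from heart ventricles of mouse embryos at E13.5, a stage of fetal growth of the ventricle wall, in 2 experiments with 18 libraries in all. The first experiment compared LIN9 wt with LIN9 KO ventricles. Its labels name no Sav1 genotype, which is taken here as wild-type in both groups. The second held 4 genotypes, which were LIN9 wt with Sav1 wt (called control here), LIN9 KO with Sav1 wt, LIN9 wt with Sav1 KO, and LIN9 KO with Sav1 KO (called double KO). There were 3 libraries for each genotype in each experiment. Every embryo carried Nkx2.5-Cre, which recombines floxed alleles in cardiac precursor cells and so leaves the genes intact in heart cells of other origin. The study's text and figure legends give the LIN9 wt genotype as Lin9 fl/+, with 1 floxed allele, while the labels name it wild-type. The knockouts are homozygous for alleles in which a single exon of Lin9 or of Sav1 is floxed, on a C57/Bl6 background. LIN9 is a core subunit of the MuvB complex, which with B-MYB activates genes of mitosis. SAV1 is the scaffold of the Hippo kinases, which restrain the coactivator YAP. The comparisons therefore asked how loss of MuvB function, of Hippo signaling or of both altered the RNA of the ventricle. A legend of the study speaks of 2 biological replicates of LIN9 KO and LIN9 wt ventricles, each measured in triplicate. The methods state that ventricular RNA was isolated in triplicate for a given genotype. Whether the 3 libraries of a group are separate embryos, pools or repeat preparations is not stated in the legend, the methods or the labels. The p-values therefore measure only the spread between these libraries.

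At the intercalated disc, gap junctions pass current from cell to cell, adherens junctions anchor the actin of the myofibrils, and desmosomes anchor intermediate filaments. In the embryonic heart these junctions are still spread along the cell border and gather at the cell ends only after birth. Mutations of the desmosomal genes are a known cause of arrhythmogenic cardiomyopathy, and connexin 43, the product of Gja1, is the main gap junction protein of the ventricular myocardium.

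Total counts per library were 9485599 to 9615274 in the first experiment, and the second experiment held 2770741 to 2999877. Single members had 204 to 9956 counts in a library of the first experiment, and 87 to 3305 in one of the second. Values are given as CPM, which are counts scaled to a common library size after TMM normalization. All differences were tested with edgeR's quasi-likelihood test, and p-values were adjusted over all genes tested by the Benjamini-Hochberg method, with 0.05 as the threshold. Groups are named as labelled. Lin9 itself was at 29.8, 21.4 and 25.6 CPM in LIN9 wt and at 21.4, 21.3 and 19.2 CPM in LIN9 KO libraries of the first experiment. It was at 29.2, 28.1 and 23.2 CPM in control, 13.1, 15.4 and 17.9 CPM in LIN9 KO, 19.2, 31.4 and 25.6 CPM in Sav1 KO and 23.5, 26.0 and 18.5 CPM in double KO libraries. Lin9 fell by 0.80 on the log2 scale in LIN9 KO against control (adjusted p = 2.70e-03, edgeR), whereas the first experiment gave -0.31 (adjusted p = 0.13), with libraries that came as close as 21.4 CPM in each group without overlap, and double KO against Sav1 KO gave -0.16 (adjusted p = 0.586), with overlapping libraries. Lin9 was also higher in every double KO than in every LIN9 KO library, at 0.56 (adjusted p = 0.238, edgeR). Counts over the whole gene include the exons that the deletion leaves, and here they neither check nor refute the double KO label. The cause of the low contrast was not tested, and every LIN9 difference given for the double KO rests on the label. Sav1 was lower in every Sav1 KO than in every control library (36.1 to 43.1 against 54.5 to 61.9 CPM), at -0.50 (adjusted p = 0.318, edgeR). It was lower in every double KO than in every LIN9 KO library (40.5 to 43.9 against 47.3 to 51.9 CPM), at -0.23 (adjusted p = 0.464), where 7.88% of all genes were. Neither passed, while double KO against control did (-0.44, adjusted p = 8.73e-03). Sav1 was also lower in every LIN9 KO than in every control library, which share the Sav1 wt label, at -0.21 (adjusted p = 0.225), where 16.8% of all genes were.

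Per kilobase of exon, the adherens junction gene Ctnnb1 had the highest level of the 10 in control libraries, with 184 ± 4.62 CPM per kb (SD, n = 3). It was followed by Ctnna1 with 86.8 ± 2.82, Dsp with 69.0 ± 2.43 and Cdh2 with 59.4 ± 1.10 CPM per kb, which did not overlap with each other. Gja1 at 54.3 ± 2.41 and Pkp2 at 52.6 ± 4.65 CPM per kb overlapped, as did Ctnna3 at 29.3 ± 12.99 and Jup at 20.1 ± 1.00 CPM per kb. The desmosomal cadherins Dsc2, at 9.50 ± 0.323, and Dsg2, at 5.05 ± 0.337 CPM per kb, were lowest and separate. In LIN9 wt libraries of the first experiment Ctnnb1 and Ctnna1 were again highest and Dsg2 lowest, while Ctnna3 stood at 11.1 ± 1.83 CPM per kb. In LIN9 KO libraries of the second experiment Gja1 stood at 28.4 ± 3.69, below Cdh2 at 38.4 ± 1.73 and Pkp2 at 37.4 ± 3.86 CPM per kb. Exonic length here is the union of all annotated exons, and 15.1% of it in Ctnnb1 (mm10, chr9:120929216-120960507, plus strand) also lies under exons of other genes, against 5.17% in Dsp, 3.99% in Dsg2, 1.48% in Ctnna1 and 0% in the other members. Under the whole span of other genes, introns included, lay 67.8% of the exonic bases of Ctnnb1, 42.8% in Dsg2, 8.68% in Ctnna3, 5.17% in Dsp and 1.48% in Ctnna1. How the authors' counting treated reads of overlapping genes, and whether it used strand, is not given in the sources used here. Of 1400 protein-coding genes whose exons all lie under the span of other genes, 86.1% were at 0 counts in all 18 libraries, against 18.4% of 13953 with no such overlap. Of 6342 genes with exons partly under other genes, the class that holds Ctnnb1 and Dsg2, 4.59% were at 0. The part of this in the levels of Ctnnb1 and Dsg2 was not tested. Per kilobase of exon outside other genes, a length chosen after seeing the data, Ctnnb1 was at 571 ± 14.4 and Dsg2 at 8.83 ± 0.589 CPM per kb in control, and Dsg2 then overlapped Dsc2. All counts of the gene were divided by that length, so that these values are upper bounds. A comparison of one gene between genotypes does not depend on this length.

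**Figure D1:**
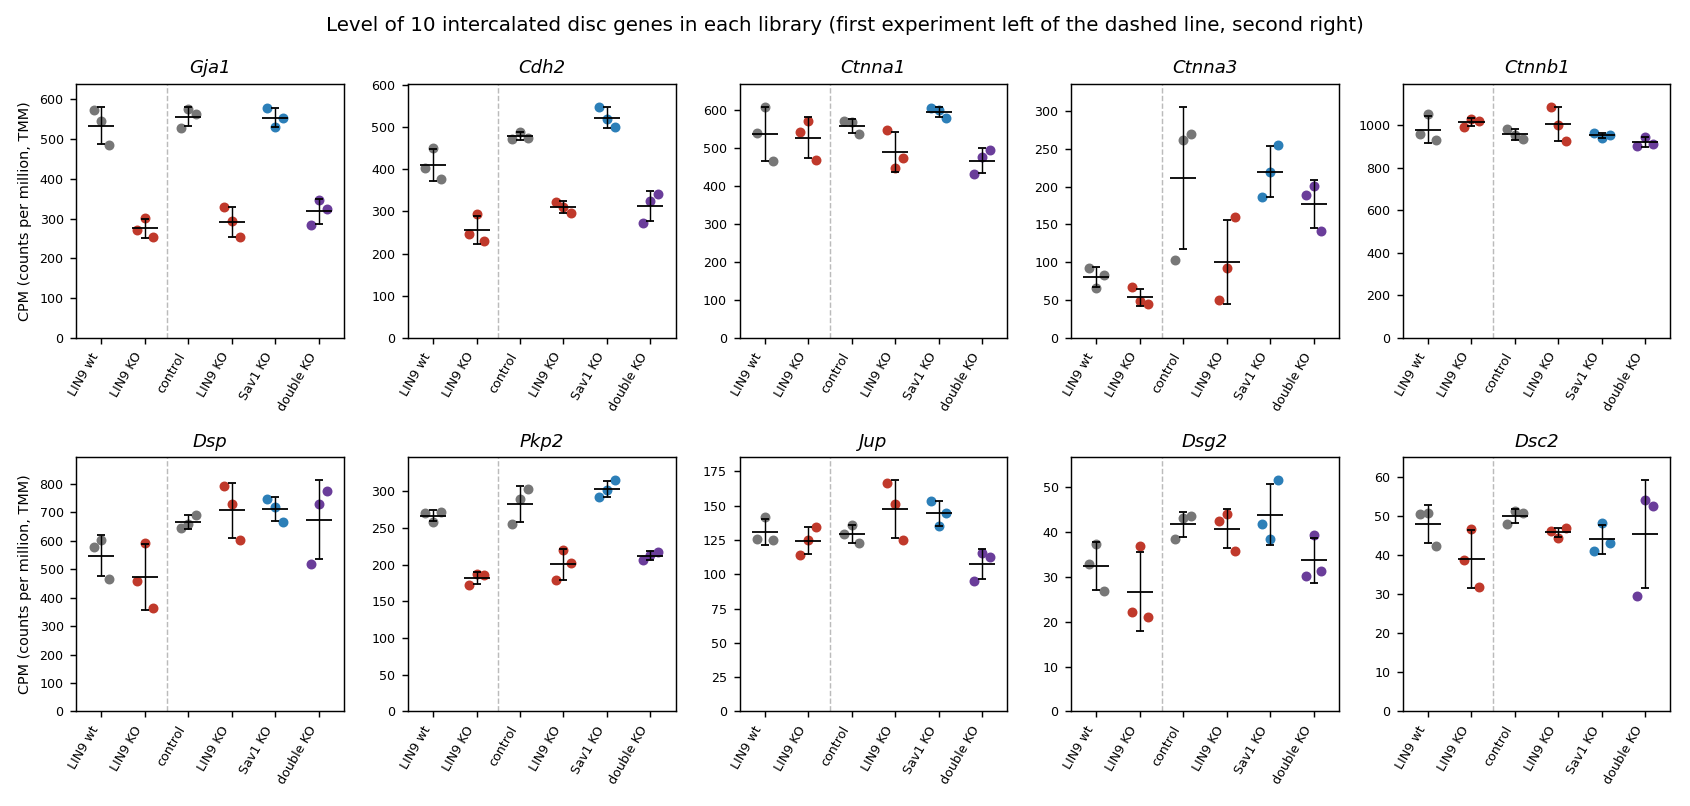
CPM of the 10 genes (vertical axis, from 0) in the 18 libraries, with 1 point for each library, a line at the mean of 3 and bars of 1 SD; the dashed line parts the first from the second experiment. Gja1, Cdh2 and Pkp2 are lower in every LIN9 KO and double KO library than in every library with LIN9 wt of the same experiment. The widest spread relative to a group mean is that of Ctnna3 in LIN9 KO libraries of the second experiment, with an SD of 55.1% of the mean. Dsg2 is wider than Ctnna3 in LIN9 KO of the first experiment (33.2% against 21.6%), and Dsc2 is in double KO (30.2% against 17.8%).

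In LIN9 KO ventricles, Gja1, Cdh2 and Pkp2 were lower in both experiments and in both Sav1 backgrounds, whereas Ctnnb1, Dsp, Dsg2 and Dsc2 did not pass the test in any comparison. In the first experiment 4 of the 10 genes passed the test, all 4 lower, where 20.9% of the 19752 genes tested passed it and 9.78% were lower. LIN9 KO against control of the second experiment gave 3 of 10, all lower, where 23.2% of 17675 genes passed and 10.5% were lower. Double KO against Sav1 KO gave 5 of 10, all lower, where 23.4% passed and 11.6% were lower. Double KO against control gave 3 of 10, all lower, where 20.6% passed and 9.96% were lower. The median log2 fold change of the 10 genes was -0.29, -0.16, -0.37 and -0.26 in these comparisons in turn, and that of all genes tested lay between 0.0086 and 0.034. The comparison of double KO with control shares its libraries with the others, so that it is given beside them and not as further support.

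Gja1 (chr10:56377330-56402513, plus strand), the connexin 43 gene, showed the largest fall among the members that passed. It was at 573, 545 and 484 CPM in LIN9 wt and at 271, 302 and 254 CPM in LIN9 KO libraries of the first experiment. In the second experiment it was at 529, 577 and 564 CPM in control, 328, 293 and 253 CPM in LIN9 KO, 577, 531 and 554 CPM in Sav1 KO and 284, 346 and 325 CPM in double KO libraries. The LIN9 KO and double KO libraries lay below every library with LIN9 wt, with no overlap. Gja1 fell by 0.95 on the log2 scale (SE 0.12, adjusted p = 5.05e-05, edgeR) in the first experiment, where its level fell by 48.4%. It fell by 0.93 (SE 0.10, adjusted p = 1.1e-07) in LIN9 KO against control, and by 0.80 (SE 0.10, adjusted p = 1.36e-06) in double KO against Sav1 KO. Against control, the double KO libraries fell by 0.81 (adjusted p = 1.52e-06, edgeR).

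The promoter of Gja1 is shown because Gja1 fell the most of the members that passed the test, and that of Jup because it was the member with the smallest unadjusted p for a difference between its LIN9 comparisons in the 2 Sav1 backgrounds. RefSeq windows on GRCm38.p6 from 250 bases before to 50 after a transcription start were at hand for 5 of the 10 genes, namely Gja1, Jup, Dsp, Ctnna3 and Ctnnb1, in 8 windows. Windows for Cdh2, Pkp2, Dsg2, Dsc2 and Ctnna1 were not used here. Capitals mark matches, on either strand, to TTTGAA or TTCGAA (the cell cycle homology region bound by MuvB), GGAATG (TEAD, the DNA-binding partner of YAP), TGANTCA (AP-1), AGGTGT (T-box) and TTTCCCGC or TTTGGCGC (E2F). The window of Gja1 is chr10:56377050-56377349 on the plus strand and that of Jup is chr11:100397741-100398040 on the minus strand, both written in the direction of transcription.
Gja1: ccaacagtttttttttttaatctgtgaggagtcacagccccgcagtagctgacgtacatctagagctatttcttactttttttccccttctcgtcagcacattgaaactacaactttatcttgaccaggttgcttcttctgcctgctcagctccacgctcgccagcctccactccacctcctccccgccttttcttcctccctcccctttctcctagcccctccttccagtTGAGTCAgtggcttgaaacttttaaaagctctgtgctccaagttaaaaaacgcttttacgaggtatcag
Jup: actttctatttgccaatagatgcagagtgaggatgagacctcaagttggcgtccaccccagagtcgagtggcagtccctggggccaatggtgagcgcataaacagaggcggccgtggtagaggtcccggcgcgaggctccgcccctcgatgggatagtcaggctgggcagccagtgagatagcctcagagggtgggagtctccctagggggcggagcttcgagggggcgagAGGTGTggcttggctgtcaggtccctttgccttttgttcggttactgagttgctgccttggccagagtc
The Gja1 window held a single match, TGAGTCA from base 232 of the 300, and AP-1 letters stood in 7.81% of 32851 promoter windows of the same length. The Jup window also held a single match, the T-box letters AGGTGT from base 232, which 13.7% of all windows hold. The Dsp window held AGGTGT at 2 places. Of the 3 Ctnna3 windows, 2 held CHR letters, 1 of these with GGAATG as well, and the other held AGGTGT. CHR letters stood in 19.2%, GGAATG in 14.7% and E2F letters in 1.56% of all windows, and neither of the 2 Ctnnb1 windows held any of the motifs. A match describes letters in these windows and not a bound site.

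Among the adherens junction genes, Cdh2 (chr18:16588877-16809246, minus strand) encodes N-cadherin, the adhesion receptor that joins neighbouring cardiomyocytes. It was at 402, 451 and 378 CPM in LIN9 wt and at 246, 294 and 229 CPM in LIN9 KO libraries of the first experiment. In the second it was at 473, 489 and 475 CPM in control, 323, 311 and 295 CPM in LIN9 KO, 549, 519 and 500.0 CPM in Sav1 KO and 273, 326 and 340 CPM in double KO libraries. No LIN9 KO or double KO library reached the lowest library with LIN9 wt of its experiment. Cdh2 fell by 0.68 on the log2 scale (SE 0.12, adjusted p = 1.07e-03, edgeR) in the first experiment and by 0.63 (SE 0.097, adjusted p = 1.61e-05) in LIN9 KO against control. The fall was by 0.74 (SE 0.097, adjusted p = 1.67e-06, edgeR) in double KO against Sav1 KO and by 0.61 (adjusted p = 2.93e-05) in double KO against control.

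Of the cytoplasmic partners of N-cadherin, Ctnnb1 passed in no LIN9 comparison, Ctnna1 in double KO against Sav1 KO and Ctnna3 in the first experiment. Ctnnb1 encodes beta-catenin, which binds the cadherin tail and also acts in Wnt signaling. It ranged from 901 to 1086 CPM over all 12 libraries of the second experiment and from 927 to 1049 CPM in the first, and every pair of groups overlapped in the LIN9 comparisons. Its log2 fold change was 0.05 (95% interval -0.20 to 0.30) in the first experiment, 0.07 (-0.12 to 0.26) in LIN9 KO against control and -0.05 (-0.24 to 0.14) in double KO against Sav1 KO, none past the test, so that a change of the size seen in Gja1 lay outside each interval. Ctnna1 encodes alphaE-catenin, the link from beta-catenin to actin. In the second experiment it was at 570, 566 and 537 CPM in control, 547, 447 and 472 CPM in LIN9 KO, 604, 599 and 578 CPM in Sav1 KO and 430, 475 and 493 CPM in double KO libraries. The double KO libraries lay below all control and Sav1 KO libraries, while 1 LIN9 KO library lay within the range of control. Ctnna1 fell by 0.35 (SE 0.096, adjusted p = 8.43e-03, edgeR) in double KO against Sav1 KO and gave -0.19 (adjusted p = 0.168) in LIN9 KO against control, -0.26 (adjusted p = 0.056) in double KO against control and -0.03 (95% interval -0.30 to 0.25) in the first experiment. Without LIN9 KO replicate 1, its highest library of that group, Ctnna1 passed in LIN9 KO against control (-0.29, adjusted p = 0.0269). Without double KO replicate 3, again the highest, it passed in double KO against control (-0.33, adjusted p = 0.0391). Over every replicate left out, these values ranged from -0.29 to -0.16 and from -0.33 to -0.24.

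Ctnna3 (chr10:63430098-65003667, plus strand) encodes alphaT-catenin, a catenin of heart and testis that joins adherens junctions to desmosomes by binding plakophilin 2. It was at 92.5, 66.3 and 82.8 CPM in LIN9 wt and at 66.5, 48.5 and 44.9 CPM in LIN9 KO libraries of the first experiment, where the highest LIN9 KO library touched the range of LIN9 wt. In the second experiment it was at 103, 262 and 270 CPM in control, 50.3, 91.8 and 160 CPM in LIN9 KO, 186, 219 and 254 CPM in Sav1 KO and 188, 201 and 141 CPM in double KO libraries. Control replicate 1 stood far below the other 2 control libraries and overlapped LIN9 KO. Ctnna3 fell by 0.60 (SE 0.16, adjusted p = 0.0189, edgeR) in the first experiment, a call that was lost without LIN9 wt replicate 1, LIN9 wt replicate 3 or LIN9 KO replicate 2 (adjusted p = 0.0735, 0.0736 and 0.0781), with values of -0.49, -0.57 and -0.53. In LIN9 KO against control it gave -1.08 (SE 0.47, adjusted p = 0.147), with -1.61 to -0.76 over every replicate left out. It passed there only without LIN9 KO replicate 3, its highest library of that group (-1.61, adjusted p = 0.0485). The deviations of control and LIN9 KO correlated between same-numbered libraries, though replicates 2 and 3 were not told apart by number. Ctnna3 was lower in LIN9 KO than in control in all 3 same-numbered pairs. With the replicate number as a block its value was -1.08 (adjusted p = 0.113, edgeR). Its value in double KO against Sav1 KO was -0.31 (95% interval -1.35 to 0.73), an interval wide enough to hold the first-experiment value and no change alike.

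The genes whose pattern was most like that of Ctnna3 over 18 libraries, with log2 CPM centred within each experiment, were Kcnq5, a potassium channel gene (Pearson r = 0.979), and Airn, a long noncoding RNA (r = 0.975), out of 12118 genes. Airn was at 209, 571 and 584 CPM in control, 79.9, 179 and 315 CPM in LIN9 KO, 432, 548 and 631 CPM in Sav1 KO and 481, 469 and 424 CPM in double KO libraries. Kcnq5 was at 42.6, 89.1 and 112 CPM in control and at 19.4, 36.7 and 60.02 CPM in LIN9 KO libraries. Control replicate 1 and LIN9 KO replicate 1 were the lowest of their groups in all 3 genes, a likeness that the choice of Kcnq5 and Airn fixed. The points share libraries, depth and genotype, and no p is given for these correlations.

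**Figure D2:**
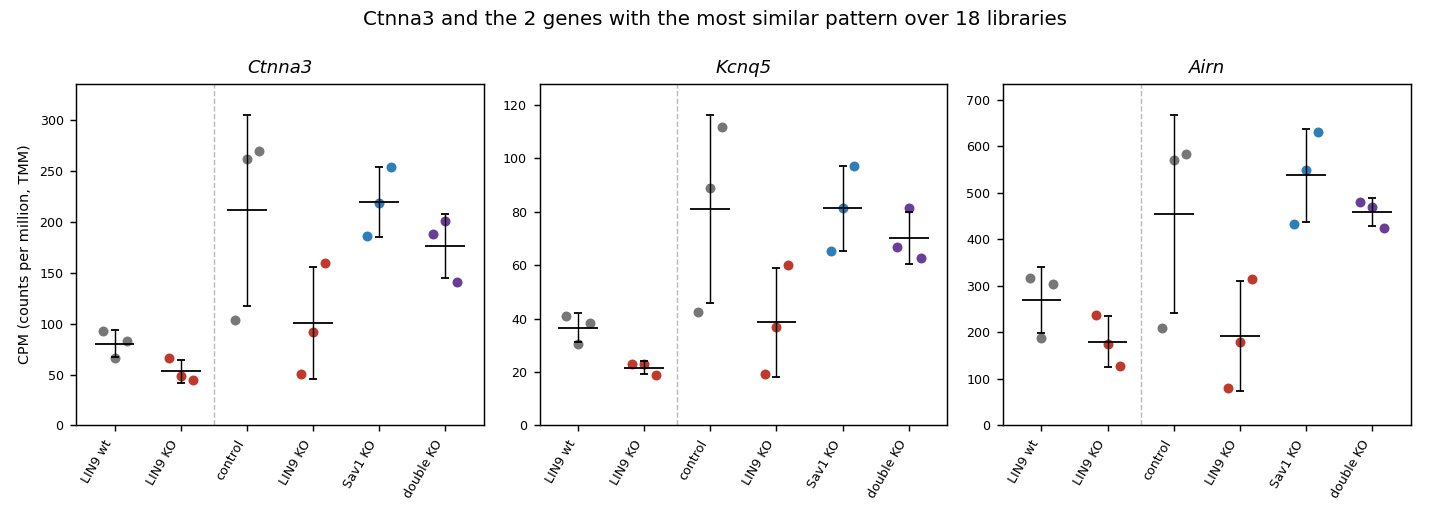
CPM (vertical axis, from 0) of Ctnna3, Kcnq5 and Airn in the 18 libraries, with the mean of 3 and bars of 1 SD; the dashed line parts the experiments. In all 3 panels the control libraries of the second experiment split into 1 low and 2 high points, for Ctnna3 at 103 against 262 and 270 CPM.

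Of the desmosomal genes, Pkp2, which encodes the plaque protein plakophilin 2 (chr16:16213318-16272712, plus strand), was the one that passed in all LIN9 comparisons. It was at 270, 258 and 272 CPM in LIN9 wt and at 172, 186 and 186 CPM in LIN9 KO libraries of the first experiment. In the second it was at 255, 289 and 303 CPM in control, 179, 220 and 202 CPM in LIN9 KO, 292, 302 and 314 CPM in Sav1 KO and 206, 214 and 217 CPM in double KO libraries. The libraries with and without the LIN9 KO label did not overlap in either experiment. Pkp2 fell by 0.56 (SE 0.10, adjusted p = 1.08e-03, edgeR) in the first experiment, by 0.49 (SE 0.099, adjusted p = 4.16e-04) in LIN9 KO against control, by 0.51 (SE 0.098, adjusted p = 2.85e-04) in double KO against Sav1 KO and by 0.41 (adjusted p = 3.06e-03) in double KO against control.

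Dsp encodes desmoplakin, which ties the plaque to desmin filaments. Dsp was at 578, 601 and 465 CPM in LIN9 wt and at 459, 594 and 365 CPM in LIN9 KO libraries of the first experiment, and at 646, 660 and 692 CPM in control and 791, 730 and 602 CPM in LIN9 KO libraries of the second. The groups overlapped in both. Its log2 fold change was -0.21 (95% interval -0.57 to 0.14) in the first experiment, 0.09 (-0.17 to 0.34) in LIN9 KO against control and -0.08 (-0.33 to 0.18) in double KO against Sav1 KO, and none passed the test. Double KO replicate 1, at 517 CPM, was apart from the other 2 double KO libraries at 729 and 776 CPM.

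Dsg2 and Dsc2 encode desmoglein 2 and desmocollin 2, the cadherins of the cardiac desmosome, and had the fewest counts of the 10 genes. Dsg2 was at 32.9, 37.4 and 26.8 CPM in LIN9 wt and at 22.1, 36.9 and 21.1 CPM in LIN9 KO libraries of the first experiment, with LIN9 KO replicate 2 alone inside the range of LIN9 wt. It gave -0.28 (95% interval -0.77 to 0.22) there, and leaving out each replicate in turn gave -0.58 to -0.13. It passed in 1 of 12 other settings, without LIN9 KO replicate 2 (adjusted p = 0.0119, edgeR). A larger fall without that replicate follows from its place inside the range of LIN9 wt. Between double KO and Sav1 KO, Dsg2 gave -0.38 (SE 0.14, adjusted p = 0.0547), which passed without Sav1 KO replicate 2 (-0.47, adjusted p = 0.0368) and without double KO replicate 2 (-0.53, adjusted p = 0.0211). Over every replicate left out, this value ranged from -0.53 to -0.25. The value of Dsg2 was -0.03 (95% interval -0.32 to 0.26) in LIN9 KO against control. In double KO against control it was -0.31 (adjusted p = 0.137), with -0.47 to -0.28 over every replicate left out. It passed there only without double KO replicate 2 (adjusted p = 0.0499). Dsc2 was at 50.7, 51.0 and 42.5 CPM in LIN9 wt and at 38.8, 46.7 and 31.9 CPM in LIN9 KO libraries of the first experiment, a difference of -0.30 (adjusted p = 0.14) that became -0.44 (adjusted p = 0.0261) without LIN9 KO replicate 2, its highest LIN9 KO library. Over every replicate left out, this difference ranged from -0.44 to -0.17. In the second experiment Dsc2 gave -0.13 (95% interval -0.45 to 0.20) in LIN9 KO against control, although every LIN9 KO library was below every control library, and 0.04 (-0.29 to 0.36) in double KO against Sav1 KO.

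Counted by overlap alone, 3 members in the first experiment and 4 in LIN9 KO against control were lower in all LIN9 KO libraries than in all libraries compared, where 18.1% and 16.8% of all genes tested were. The same held for 5 members in double KO against Sav1 KO, where 19.2% of genes were lower in this way, and for 5 in double KO against control, where 17.6% were.

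**Figure D3:**
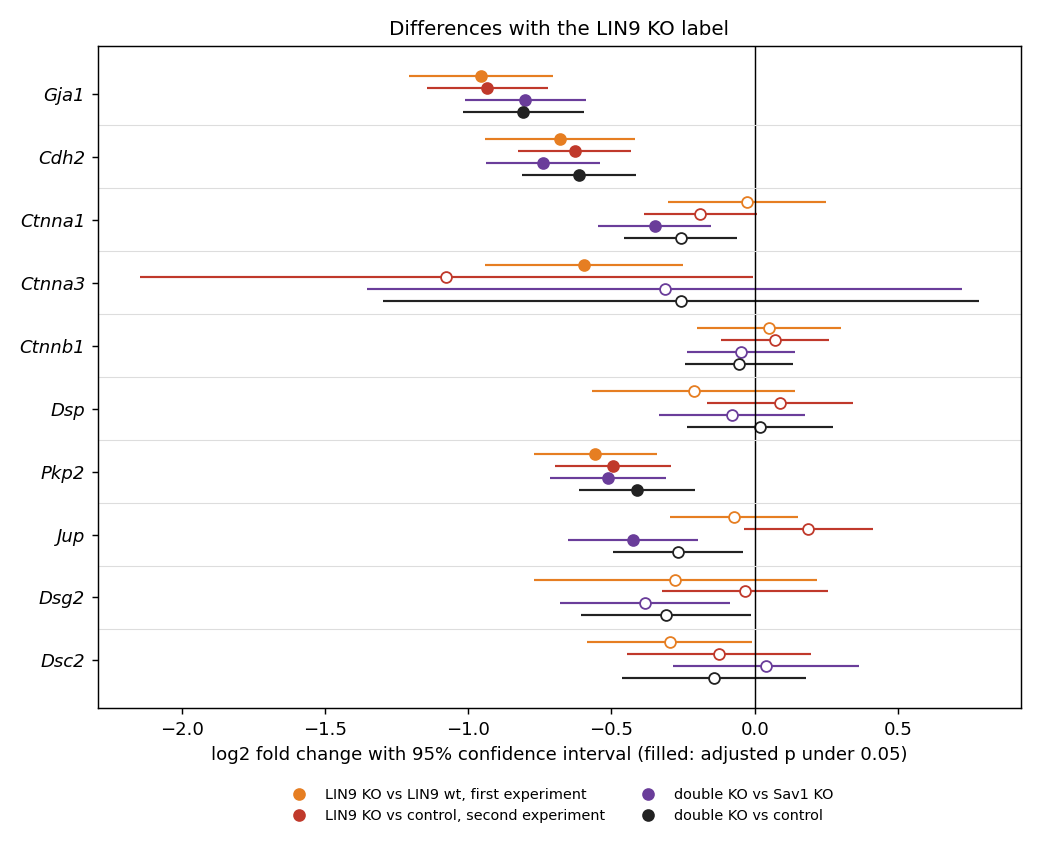
Log2 fold change (horizontal axis) with its 95% interval for the 10 genes in 4 comparisons that differ in the LIN9 label; filled points passed the test at an adjusted p under 0.05. Gja1, Cdh2 and Pkp2 lie left of 0 with filled points throughout, between -0.95 and -0.41, and the intervals of Ctnna3 are the widest in the second experiment.

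Jup encodes plakoglobin, the armadillo protein of the desmosomal plaque that also binds N-cadherin in adherens junctions. In the first experiment it was at 126, 142 and 125 CPM in LIN9 wt and at 114, 125 and 134 CPM in LIN9 KO libraries, a difference of -0.07 (95% interval -0.29 to 0.15). In the second it was at 130, 136 and 123 CPM in control, 166, 151 and 125 CPM in LIN9 KO, 153, 135 and 145 CPM in Sav1 KO and 95.01, 115 and 112 CPM in double KO libraries. Every double KO library lay below all other libraries of that experiment. Jup fell by 0.42 (SE 0.11, adjusted p = 5.54e-03, edgeR) in double KO against Sav1 KO, and it gave 0.19 (SE 0.11, adjusted p = 0.241) in LIN9 KO against control and -0.27 (adjusted p = 0.0884) in double KO against control. The difference between the LIN9 comparisons in the 2 Sav1 backgrounds, the interaction, was -0.61 (SE 0.16), with an unadjusted p of 5.15e-04 and an adjusted p of 0.536 by edgeR, so that it did not pass over all genes. Without LIN9 KO replicate 3, the lowest Jup library of that group, the interaction was -0.71 (adjusted p = 0.0217). That was the 1 of 18 other settings in which it passed, and over every replicate left out it ranged from -0.71 to -0.50. Passing in 1 Sav1 background and not in the other is therefore not shown to be a difference between them in the data with all libraries.

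With the Sav1 KO label, no member passed the test in either LIN9 background, and few genes of any kind did. In Sav1 KO against control 0 of 10 members passed by edgeR, where 3 genes or 0.017% of all tested did, and 0 members and 693 genes (3.92%) had an unadjusted p under 0.05. The members lay between -0.18 for Dsc2 and 0.16 for Jup. Cdh2 and Ctnna1 were higher in every Sav1 KO than in every control library, at 0.13 (95% interval -0.07 to 0.32) and 0.09 (-0.11 to 0.29), where 5.97% of all genes were higher without overlap. DESeq2 called 0 members and 2 genes here.

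Between double KO and LIN9 KO 0 of 10 members passed by edgeR, where 2 genes or 0.0113% did, and 1 member and 2093 genes (11.8%) had an unadjusted p under 0.05. DESeq2 called 0 members and 77 genes. The member with that unadjusted p was Jup, at -0.46 (SE 0.11, unadjusted p = 3.1e-04, adjusted p = 0.119), which was also lower in every double KO than in every LIN9 KO library, where 7.88% of all genes were. Without LIN9 KO replicate 3 its value was -0.57 (adjusted p = 0.00837), and over every replicate left out it ranged from -0.57 to -0.355. Ctnna3 had the larger difference, 0.82 (95% interval -0.25 to 1.89, unadjusted p = 0.117), with overlapping libraries, and Dsg2 gave -0.28 (-0.57 to 0.02, unadjusted p = 0.0681). Gja1 gave 0.13 (-0.09 to 0.34), Cdh2 0.01 (-0.18 to 0.21) and Pkp2 0.08 (-0.12 to 0.29). For Gja1, Cdh2 and Pkp2 the interval of the Sav1 difference thus left out a rise as large as the LIN9 KO falls. The interaction passed for 0 members and 0 genes of all tested by edgeR, where 1 member and 6.54% of genes had an unadjusted p under 0.05, and DESeq2 called 0 members and 0 genes. Over both LIN9 backgrounds together the mean Sav1 difference of the members ranged from -0.15 for Jup to 0.44 for Ctnna3, and 0 members and 8 genes (0.0453%) passed by edgeR, with 0 members and 8.85% of genes at an unadjusted p under 0.05 and 0 members and 19 genes called by DESeq2.

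**Figure D4:**
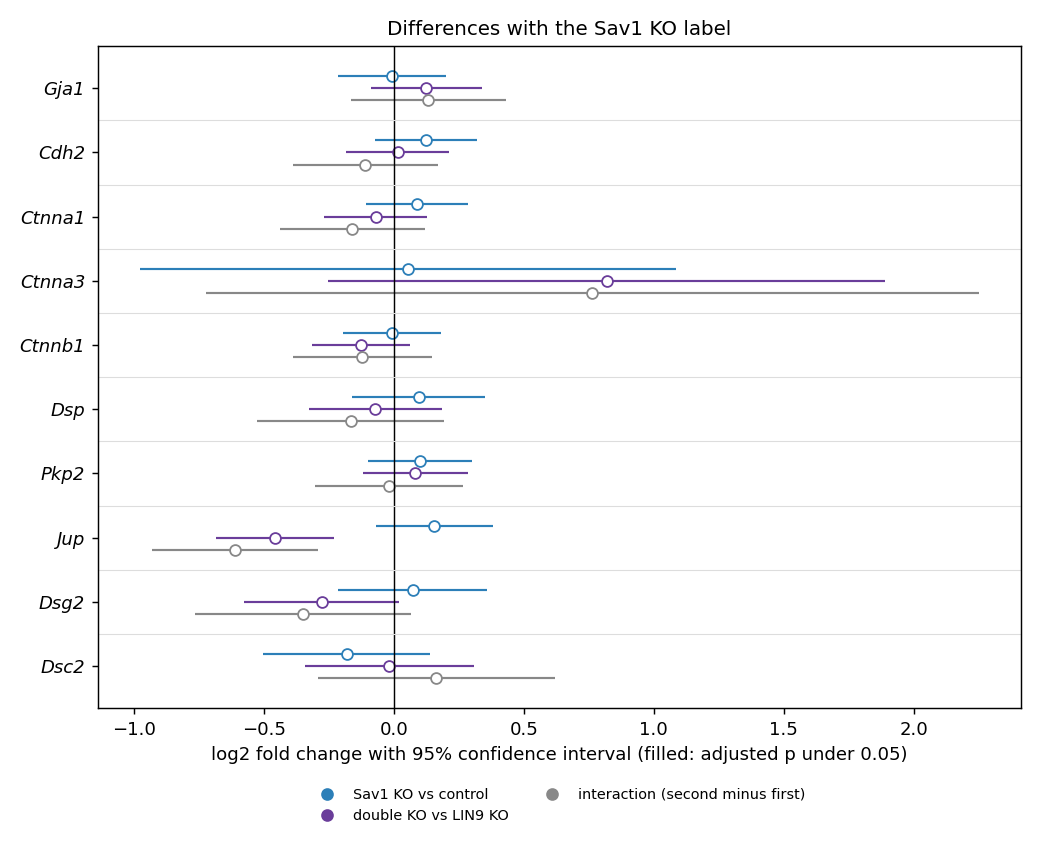
Log2 fold change (horizontal axis) with its 95% interval for the 10 genes in Sav1 KO against control, in double KO against LIN9 KO, and for the interaction, which is the latter minus the former. All points are open, since none had an adjusted p under 0.05, and Jup at -0.46 and -0.61 has intervals that leave out 0 in the last pair.

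Among the 10 genes, Gja1, Cdh2 and Pkp2 followed each other most closely over all libraries, genotype differences included. Their shared falls with the LIN9 KO label enter these correlations, and likeness within a genotype was not computed. Over 18 libraries with log2 CPM centred by experiment, Pearson's r was 0.974 for Gja1 with Cdh2, 0.927 for Gja1 with Pkp2 and 0.917 for Cdh2 with Pkp2, given as a description of libraries that share genotype and depth. Dsp and Dsc2 gave 0.78 and Jup and Ctnnb1 0.726, while Ctnna3 and Ctnnb1 ran opposite at -0.746. Of genes outside the 10, the most like Gja1 were Fastkd1 (r = 0.984) and Camk2a (0.983), the most like Cdh2 were Bmp7 (0.986), a BMP ligand, and Actn2 (0.983), the alpha-actinin of the Z disc, and the most like Pkp2 were Mtss1 (0.979) and Myh7b (0.975), a myosin heavy chain. The genes most like Ctnna3, given above, had r as high as those of Pkp2. For the remaining members r was 0.944 or lower, with Nup205 (0.944) for Ctnna1, Igf2r (0.913) for Dsp, Bckdha (0.889) for Jup, Lonp1 (0.867) for Ctnnb1, Xpr1 (0.84) for Dsg2 and Ncoa2 (0.788) for Dsc2.

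Among other genes of the same junctions, most of the scaffold and channel partners of the disc that passed the test with the LIN9 KO label were lower. The whole list held 41 other genes of adherens junctions, desmosomes, gap junctions and the disc, of which 15 were scaffold and channel partners. Of the 41, 40 were found by symbol. In the first experiment 5 were higher and 14 lower of 37 tested, against 3 higher and 12 lower of 36 in LIN9 KO against control, where 20.9% and 23.2% of all genes passed. Between double KO and Sav1 KO 3 were higher and 13 lower, where 23.4% of all genes passed and 11.6% were lower. In double KO against control 4 were higher and 12 lower, where 20.6% passed and 9.96% were lower. In the Sav1 comparisons 0 passed, where 0.017% of all genes did in Sav1 KO against control and 0.0113% in double KO against LIN9 KO. The median log2 fold change of the listed genes was -0.13 in the first experiment and -0.18 in LIN9 KO against control. It was -0.23 in double KO against Sav1 KO and -0.21 in double KO against control. Of the 36 tested in both experiments, 15 passed in LIN9 KO against LIN9 wt and in LIN9 KO against control with the same sign, 12 lower and 3 higher, where 14.8% of 17656 genes did so and 6.77% were lower. The scaffold and channel partners made up 9 of the 12, and the other lists held 3 lower and 3 higher. The median of the scaffold and channel partners was -0.53 in the first experiment and -0.48 in LIN9 KO against control, while that of the adherens, desmosome and gap junction lists was 0.0004, 0.38 and 0.19 in the first experiment and 0.07, -0.07 and -0.23 in LIN9 KO against control. The partners were led by Bves, a membrane protein of the Popeye domain family, which fell by 1.52 in the first and by 1.79 in the second experiment. Nrap, an actin-linked scaffold of myofibril ends, fell by 1.33 and by 1.49, and Sorbs2 fell by 1.15 and by 1.36. Lmo7 fell by 0.98 and by 0.89. Xirp1 of the same list is at 0 counts in all 18 libraries. Of adherens junction genes the armadillo proteins Pkp4 (fell by 0.74 and by 0.54) and Arvcf (fell by 0.61 in each) were lower, while Nectin2 (0.38 and 0.65) and Cdh11 (0.57 and 0.39), a cadherin of mesenchymal cells, were higher. The desmosomal gene Perp fell by 0.42 and by 0.35. Other gap junction channels went both ways. Gja4, the connexin 37 gene of arterial endothelium, rose by 1.48 and by 1.51 on the log2 scale (adjusted p = 1.13e-06 and 3.29e-09, edgeR). Gja5, the connexin 40 gene, and Gja3, both named after their values were seen, fell by 1.46 and by 0.56 in the first experiment (adjusted p = 0.01 and 0.0319) and gave -1.37 and -0.61 in LIN9 KO against control (adjusted p = 0.0553 and 0.0802).

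**Figure D5:**
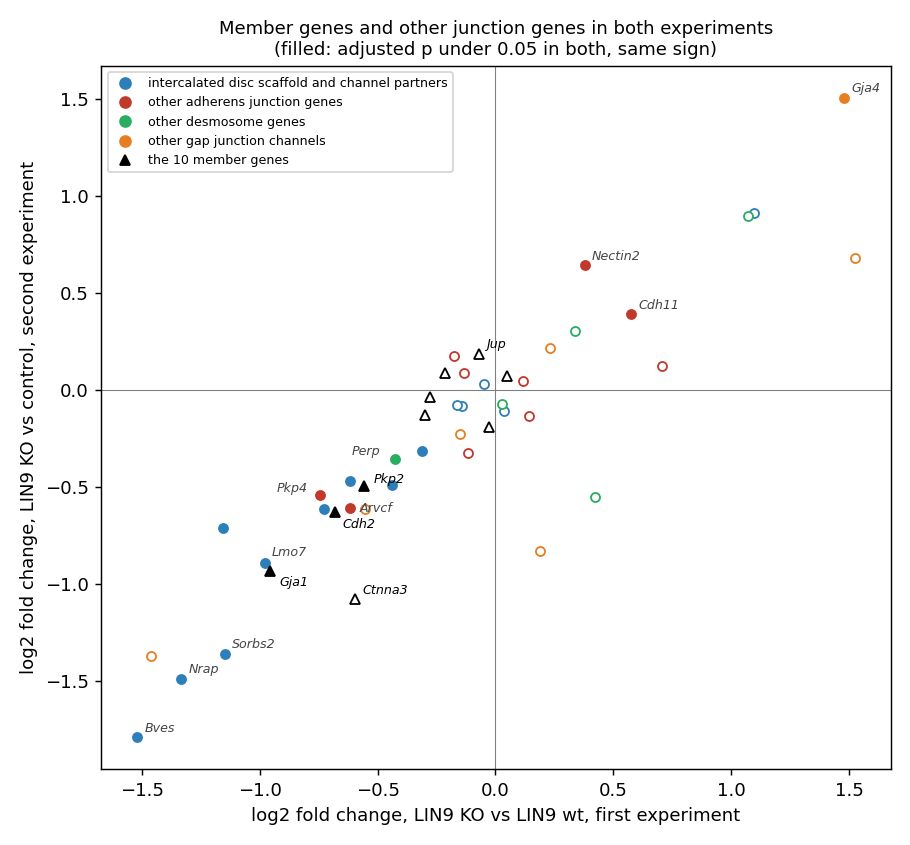
Log2 fold change in LIN9 KO against LIN9 wt of the first experiment (horizontal axis) and against control of the second (vertical axis), with 1 point for each gene; triangles are the 10 genes described and circles other junction genes, filled where the adjusted p was under 0.05 in both with the same sign. Gja1 at -0.95 and -0.93 lies near Lmo7 at -0.98 and -0.89, and Gja4 at 1.48 and 1.51 is at the opposite corner.

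The falls of Gja1, Cdh2 and Pkp2 stood beside shifts in markers of whole cell types, and in bulk ventricle fewer cells of a type and less RNA per cell cannot be told apart. Of 9 cardiomyocyte markers tested, among them Tnnt2, Myh6 and Ryr2, 6 fell and 0 rose in each of the 4 LIN9 comparisons, with medians of -1.01 in the first experiment, -0.92 in LIN9 KO against control, -0.74 in double KO against Sav1 KO and -0.66 in double KO against control. Of all genes tested, 9.78%, 10.5%, 11.6% and 9.96% were lower in these comparisons in turn. The summed level of this list was 21623 to 22050 CPM in LIN9 wt and 9624 to 13456 CPM in LIN9 KO libraries of the first experiment, and 23970 to 25251 CPM in control, 11955 to 13218 CPM in LIN9 KO, 25882 to 27009 CPM in Sav1 KO and 11901 to 14839 CPM in double KO libraries of the second. Actc1, the tenth gene of the list and a defining gene of the tissue, had 0 counts in every library of both experiments, so it was not tested, and Alas2 of the erythroid list was likewise at 0. All exons of Actc1, Alas2 and Xirp1 lie under the span of another gene.

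Markers of other cells were higher in the same libraries, with the counts given for the first experiment, LIN9 KO against control, double KO against Sav1 KO and double KO against control in turn. Of all genes tested, 20.9%, 23.2%, 23.4% and 20.6% passed in these comparisons, higher and lower together. Of 6 fibroblast and cushion mesenchyme markers 5, 5, 6 and 6 rose. Their summed level was 2138 to 2460 CPM in LIN9 wt and 4450 to 4905 CPM in LIN9 KO libraries of the first experiment, and 2839 to 3068 CPM in control, 5095 to 6492 CPM in LIN9 KO, 2821 to 3339 CPM in Sav1 KO and 5058 to 6637 CPM in double KO libraries of the second. Of 6 epicardial markers 5, 5, 5 and 4 rose. The epicardial sum was 262 to 284 CPM in LIN9 wt and 446 to 526 CPM in LIN9 KO libraries of the first experiment, and 233 to 249.6 CPM in control, 415 to 514 CPM in LIN9 KO, 205 to 256 CPM in Sav1 KO and 404 to 422 CPM in double KO libraries of the second. Of 6 macrophage markers 6, 5, 5 and 5 rose. The macrophage sum was 51 to 57.8 CPM in LIN9 wt and 109 to 127 CPM in LIN9 KO libraries of the first experiment, and 60.6 to 63.9 CPM in control, 123 to 147 CPM in LIN9 KO, 53.1 to 64.1 CPM in Sav1 KO and 126 to 159 CPM in double KO libraries of the second. All 5 erythroid markers tested rose in each comparison, and haemoglobin genes took 0.331% to 1.11% of counts in libraries with LIN9 wt and 1.05% to 8.64% in those labelled LIN9 KO or double KO. Genes of the mitochondrial genome took 4.20% to 5.42% of counts in LIN9 wt and 3.42% to 4.02% in LIN9 KO libraries of the first experiment, and 3.88% to 4.86% in control, 2.63% to 3.54% in LIN9 KO, 4.37% to 4.99% in Sav1 KO and 3.58% to 4.76% in double KO libraries of the second. The erythroid sum was 251 to 449.8 CPM in LIN9 wt and 1933 to 4317 CPM in LIN9 KO libraries of the first experiment, and 130.4 to 184 CPM in control, 1267 to 1644 CPM in LIN9 KO, 98.2 to 129 CPM in Sav1 KO and 586 to 1049 CPM in double KO libraries of the second.

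Of the epithelial markers 3 rose in each comparison, while Epcam and Cdh1 had 3 counts or fewer in every library of the second experiment. The epithelial sum was 66.4 to 77.2 CPM in LIN9 wt and 171 to 229 CPM in LIN9 KO libraries of the first experiment, and 67.1 to 70.4 CPM in control, 150.1 to 205 CPM in LIN9 KO, 69.96 to 77.3 CPM in Sav1 KO and 137 to 172 CPM in double KO libraries of the second. Of 6 atrial markers 1, 2, 2 and 1 rose and 0 fell, where 20.6% to 23.4% of all genes passed, higher and lower together. The atrial sum was 897 to 1542 CPM in LIN9 wt and 1914 to 2766 CPM in LIN9 KO libraries of the first experiment, and 1061 to 1343 CPM in control, 2244 to 2566 CPM in LIN9 KO, 948 to 1170 CPM in Sav1 KO and 1777 to 2257 CPM in double KO libraries of the second. Of 6 endothelial markers 2, 2, 3 and 2 rose and 0, 1, 1 and 1 fell. The endothelial sum was 803 to 1062 CPM in LIN9 wt and 967 to 1248 CPM in LIN9 KO libraries of the first experiment, and 885 to 907 CPM in control, 916 to 1069 CPM in LIN9 KO, 777 to 842 CPM in Sav1 KO and 867 to 1042 CPM in double KO libraries of the second. No marker of these lists passed in a Sav1 comparison. The part of these shifts in the falls of the member genes was not tested.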

How the data were processed

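Ventricular RNA was sequenced after poly(A) selection. Per the study's methods, the authors mapped reads with TopHat2 (2.1.0) and Bowtie2 to mm10, scaled samples to the one with the fewest mappable reads, and obtained counts of Ensembl genes (GRCm38.p6) from summarizeOverlaps. The deposited values are these whole-number counts, without further normalization, and their totals are alike within each experiment but not between them. The authors' own comparison tables (log2 fold changes, log2 CPM, p-values, FDR) were not used, nor were the 4 ChIP-seq samples, and 0 columns of per-sample values were left out.

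From the counts, 4 repeated identifiers were kept once in each table, genes with a mean count above 1 were retained (19752 and 17675), and TMM normalization and edgeR's quasi-likelihood test were applied (R 4.3.3, edgeR 4.0.16, robust estimates). All 12 libraries of the second experiment shared 1 fit, with genotypes compared as contrasts. Adjusted p-values are Benjamini-Hochberg values over all genes, with a threshold of 0.05. With 2770741 to 2999877 counts per library, against 9485599 to 9615274 in the first experiment, the counting error at a given CPM is larger in the second.

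The members and lists were chosen with earlier results of these data known. Named are all 10 members, Lin9 and Sav1, up to 4 other junction genes per list with the largest mean change among those past the threshold with the same sign in both experiments, and the 2 genes most like each member in log2 CPM (prior count 2) among those with at least 5 CPM. Positions and exonic lengths are from GENCODE M21 on mm10, and promoters from RefSeq (GRCm38.p6). Whether replicate numbers pair libraries was checked by correlating deviations from group means between same-numbered libraries, with 0.1 as the minimum for every pair. This held for control and LIN9 KO of the second experiment (0.216 to 0.599), from the values alone, since the labels name no shared litter or day. Replicate 1 gave the 0.599. Control replicate 2 with LIN9 KO replicate 3 gave 0.264, and control replicate 3 with LIN9 KO replicate 2 gave 0.213. Replicates 2 and 3 are thus not told apart by number, and pairing by number is not shown for them. No pair of libraries of 1 group differed by as little as sampling noise (chi-square per gene 1.22 to 26.2, where sampling alone gives 1). In the second experiment control replicates 2 and 3 gave 1.22 and Sav1 KO pairs 1.39 to 1.98, near sampling noise, while LIN9 KO pairs gave 6.28 to 21.5. These values do not tell separate embryos from repeat preparations. The alternatives were other normalizations and filters, DESeq2 (1.42.0), a replicate block, a fit on the 6 libraries compared, and leaving out each replicate.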

Additional observations from a re-analysis of the deposited data

How the results depend on the processing

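Of 15 values of members past the threshold, 14 stayed past it in every setting, including those of Gja1, Cdh2 and Pkp2. The exception was Ctnna3 in the first experiment without single replicates. In double KO against LIN9 KO, 1 member, Jup, passed without a filter on low counts (adjusted p = 0.00996), with a replicate block (0.0483) and without LIN9 KO replicate 3, so that the count of members passing ranged from 0 to 1 on leaving out replicates. The interaction count likewise ranged from 0 to 1, with Jup passing without LIN9 KO replicate 3. All genes passing in double KO against LIN9 KO numbered 2, against 309 without the filter, 84 with the block, 77 by DESeq2, 0 in the fit on 6 libraries and with a mean count of at least 10, and 0 to 378 on leaving out a replicate, with 378 without LIN9 KO replicate 3. In Sav1 KO against control they numbered 3, against 22 without the filter and 31 in the fit on 6 libraries and 0 to 2 on leaving out a replicate, and for the interaction 0, against 17 without the filter and 64 without LIN9 KO replicate 3. For the mean Sav1 difference they numbered 8, and 0 to 159 in other settings, with 0 without control replicate 3 and 159 without the filter. In the first experiment they numbered 4131, and 2722 without LIN9 wt replicate 3. The cause was not tested.

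Every same-numbered pair passed the minimum only for control and LIN9 KO of the second experiment, where the block changed no call of a member. Elsewhere at least 1 pair lay under the minimum, with same-numbered r of 0.0433 to 0.179 in the first experiment, 0.0891 to 0.301 for control with Sav1 KO, 0.0948 to 0.325 for LIN9 KO with Sav1 KO and -0.0978 to 0.141 for double KO with any other group. With the block Dsc2 passed in the first experiment (-0.31, adjusted p = 0.0327), Dsg2 in double KO against Sav1 KO (-0.38, 0.049) and Ctnna1 in double KO against control (-0.26, 0.0451). DESeq2 also called Ctnna1 there (0.0498), and Dsg2 passed without the filter (0.0445) and in the fit on 6 libraries (0.0395).

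Signs turned for 20 of the 80 values, none of them past the threshold. In the fit on 6 libraries Dsc2 turned to 0.00077 in double KO against LIN9 KO and Dsp to -0.0022 in double KO against control. The others turned on leaving out a replicate, with these log2 ranges. In the first experiment these were Ctnna1 -0.12 to 0.070. In LIN9 KO against control these were Ctnnb1 -0.0045 to 0.099, Dsp -0.016 to 0.16, Dsg2 -0.12 to 0.019. In double KO against Sav1 KO these were Dsp -0.21 to 0.051, Dsc2 -0.13 to 0.24. In Sav1 KO against control these were Gja1 -0.048 to 0.016, Ctnna3 -0.27 to 0.27, Ctnnb1 -0.027 to 0.015, Dsg2 -0.058 to 0.15. In double KO against LIN9 KO these were Cdh2 -0.046 to 0.095, Ctnna1 -0.11 to 0.025, Dsp -0.18 to 0.080, Dsc2 -0.17 to 0.21. In double KO against control these were Dsp -0.13 to 0.14, Dsc2 -0.32 to 0.052. For the interaction these were Pkp2 -0.080 to 0.066. For the mean Sav1 difference these were Ctnna1 -0.014 to 0.053, Dsp -0.048 to 0.082, Dsc2 -0.18 to 0.0091.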
